A study of Labrus bergylta with 77 samples.

Results

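The B-cell development and receptor signalling genes considered here were chosen by name from a messenger RNA table of ballan wrasse (Labrus bergylta) larvae: CD79A, CD79B, Btk, BLNK, Pax5, Ebf1, Prdm1 and Cd81. All rows of the deposited table whose gene name equals one of these 8 names, case ignored, were taken, which gave 12 of 29932 rows. Btk and pax5 had 1 row each, BLNK and Ebf1 had 2 each, and Prdm1 and Cd81 had 3 each. No row carried the name CD79A or CD79B, although the RefSeq gene set lists 1 gene of each for this species. The signalling chains of the B-cell receptor were therefore not analysed here. For the names with several rows, RefSeq lists 1 blnk, 1 ebf1a, 3 prdm1 and 2 cd81 genes, but the rows could not be tied to them. The files do not say whether rows that share a name are gene duplicates or pieces of 1 gene, so each is given by its identifier and called a copy.

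The study followed the formation of lymphoid organs and mucosal lymphoid tissue and the effect of early diets. Each of its 77 libraries was made from pooled whole larvae, so the B lineage is a small part of the RNA in every library. The 5 BW0 pools came from incubators at 4 days post hatch (dph), unfed and 4 mm long. The fed stages BW2 to BW7 had 2 pools from each of 6 tanks, of which B6, B8 and B10 were given rotifers and Artemia (control) and B5, B7 and B9 were given zooplankton (plankton). Stages were set by length, so the diets were sampled at the same age at BW2 (9 dph) and at different ages at BW3 (control 16 dph, plankton 18 dph), BW4 (26 and 28 dph) and BW5 (36 and 41 dph). Both diets were sampled at 58 to 59 dph at BW6 and at 79 to 80 dph at BW7, when the larvae were 26.4 to 27.9 mm long. All tanks got dry feed beside their diet after 40 dph and nothing else after 56 dph, so the BW5 plankton samples were taken after dry feed began and the BW5 control samples before. All tanks were stocked from a shared broodstock of several females and males.

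In jawed vertebrates a B cell is set up by transcription factors, among which Ebf1 and Pax5 establish and hold the lineage, and Prdm1 (Blimp-1) later drives the change to an antibody-secreting plasma cell. Antigen binding to surface immunoglobulin is passed into the cell by CD79A and CD79B, whose signal the adaptor BLNK links to the kinase Btk, while the tetraspanin CD81 belongs to the co-receptor complex. Most of these roles are known from mouse and human, and several members also act outside the B lineage: Btk and BLNK in myeloid cells, Ebf1 in neurons and mesenchyme, Prdm1 in many embryonic tissues, and CD81 in most cell types.

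Levels are in TPM, transcripts per 1000000, which scales each library to the same sum and corrects for transcript length. The log values of both pools from 1 tank and stage were averaged into 1 library, which gave 36 tank libraries beside the 5 BW0 pools, 41 in all. The TPM levels, ranges and overlaps given for member rows in tank libraries instead use the arithmetic mean of both pools. They are thus on another scale than the log values that were tested. Differences are on the scale log2(TPM + 1) with their standard error, from 1 limma fit of all 13 stage and diet groups, and were called where p, adjusted by Benjamini-Hochberg, was below 0.05. The adjustment ran over 22028 rows that reached 1 TPM in 3 or more of the 41 libraries. Of the 12 member rows, 11 passed this filter and pax5 did not. BLNK LABE_00036152 passed through 14 libraries of BW5 to BW7 alone, where it was high. Its p-values marked as such are therefore from the fit with no filter on low values. Its other p-values, and its part in the counts of calls, come from filtered fits. Btk passed through the 30 libraries of BW3 to BW7, where it was higher than at BW0 and BW2. Its p-values are from the filtered fit, and its stage calls held with no filter.

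The depth of the libraries is unknown, since TPM keeps no read counts. Of the 77 pools, 9 correlated better with another stage and diet group than with their own, among them 1 BW0 pool and, at BW2, 1 pool each of tanks B5 and B8, and results at BW0 and BW2 are given with and without them where this matters. BW0 RNA was extracted with another reagent, so this stage and the reagent cannot be told apart. Libraries also moved as a whole on the log scale: the median of all rows tested was 0.37 lower at BW2 than at BW0, then 0.42 higher at BW3 than at BW2, and at BW7 it was within 0.03 of BW2. In whole larvae, a higher share of cells of a type and more RNA of a gene per cell cannot be told apart.

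The labelled tissue, whole larvae, holds several blood lineages, and the defining markers of B cells were few. MS4A1, JCHAIN, MZB1 and TNFRSF17 had no row of that name, and POU2AF1 lay at 0.56 TPM on average at BW7. The 10 immunoglobulin sequences, named by hand in the table, summed to 6.39 TPM on average at BW2, 2.26 TPM at BW4, 47.0 TPM at BW6 and 132 TPM at BW7 (range 94.8 to 170 TPM over 6 tanks). At BW0 they summed to 9.15 TPM. The immunoglobulin sum was thus highest in the last 2 stages, whereas pax5 and the Ebf1 copies were not. Among its rows, sIgT was highest at BW0, at 4.69 TPM against 2.80 TPM at BW7.

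**Figure D1:**
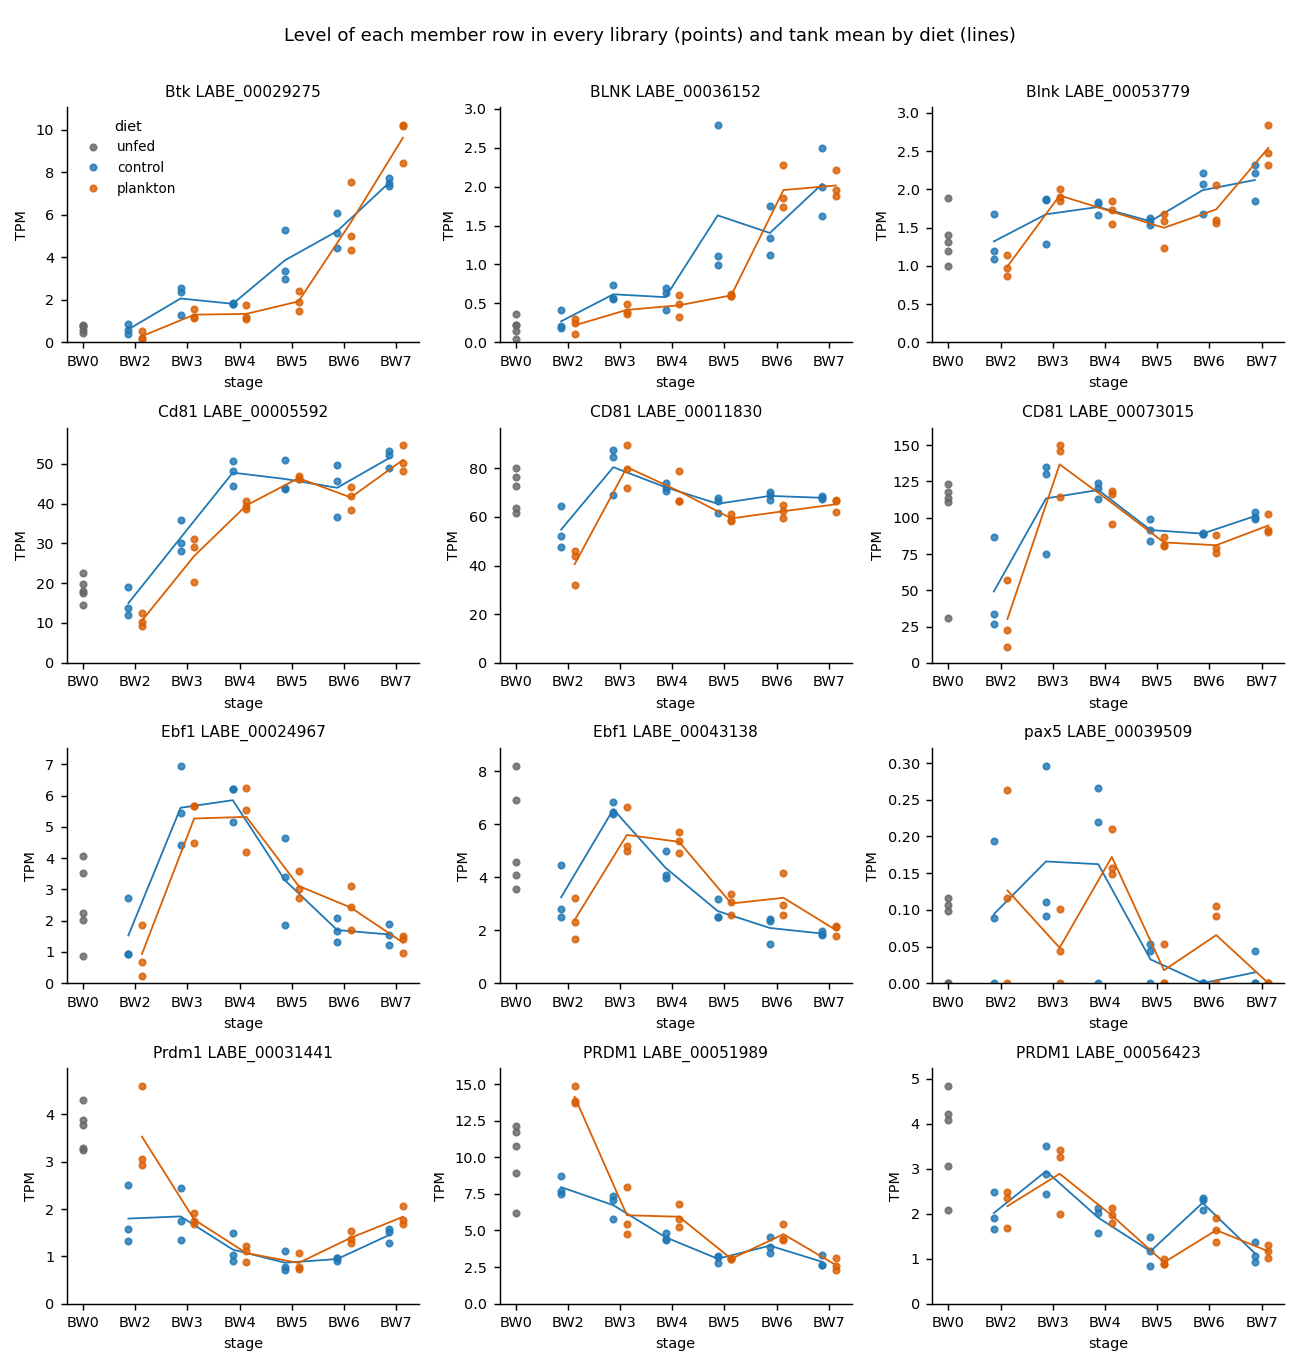
Level of each of the 12 member rows in TPM (vertical axis, from 0) in every library by stage (horizontal axis). Points are tank libraries of the control and plankton diets or unfed BW0 pools, and lines join the means of 3 tanks. Btk climbed to between 7.36 and 10.2 TPM at BW7, both Ebf1 copies peaked at BW3 to BW4, and PRDM1 LABE_00051989 was highest in plankton tanks at BW2.

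Btk (LABE_00029275), the Tec-family kinase that activates phospholipase C gamma below the receptor, showed the largest rise from BW2 to BW7 among the member rows. At BW2 the 6 tank libraries lay between 0.14 and 0.855 TPM with a median of 0.471 TPM. At BW7 they lay between 7.36 and 10.2 TPM with a median of 8.08 TPM. The ranges did not overlap, all 6 tanks moved up, and the difference was 2.74 ± 0.12 (limma, adjusted p = 5.89e-19), against a median of -0.03 over all rows tested. Btk was already higher at BW3 than at BW2, with 1.68 ± 0.618 TPM (SD, n = 6 tanks) and a difference of 0.89 ± 0.12 (adjusted p = 3.98e-07), which is 0.47 above the shift of the median row. It held at 1.58 ± 0.341 TPM at BW4, where the step was -0.04 (adjusted p = 0.869). Btk then rose at each of the last 3 steps, to 2.89 ± 1.35, 5.43 ± 1.2 and 8.56 ± 1.32 TPM.

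The BLNK copies, the adaptor that brings Btk and phospholipase C gamma together, differed in how far they moved. BLNK LABE_00036152 lay between 0.11 and 0.415 TPM at BW2, with a median of 0.229 TPM, and between 1.62 and 2.49 TPM at BW7, with a median of 1.97 TPM. These ranges did not overlap, and the copy rose by 1.27 ± 0.11 (adjusted p = 7.09e-12 with no filter). The steps to BW5 and BW6 were 0.40 ± 0.11 each (adjusted p = 0.00378 and 0.00435 with no filter). Without tank B10 the first was 0.21 (adjusted p = 0.0619), and without tank B8 the second was 0.28 (adjusted p = 0.0878). In the fit of the groups compared alone, the second had an adjusted p of 0.0547. Blnk LABE_00053779 was higher at the start, between 0.864 and 1.68 TPM at BW2 with a median of 1.11 TPM, and reached 1.85 to 2.85 TPM at BW7 with a median of 2.31 TPM. It rose by 0.63 ± 0.08 (adjusted p = 5.78e-08), again with no overlap. The early differences of both copies, 0.29 and 0.38 from BW2 to BW3, passed the test but were below the shift of the median row, and with libraries scaled by size factors they came to 0.12 (adjusted p = 0.337) and 0.04 (adjusted p = 0.554). The first of them also lost its call without tank B7 (0.23, adjusted p = 0.132) or B8 (0.28, adjusted p = 0.0572). The change from BW2 to BW7 was larger in BLNK LABE_00036152 than in Blnk LABE_00053779 in all 6 tanks, by 0.64 on average (SD 0.366, exact two-sided sign-flip test over 6 tanks, p = 0.03125, the smallest that 6 tanks allow, adjusted p = 0.0417 over 8 pairs of copies).

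**Figure D2:**
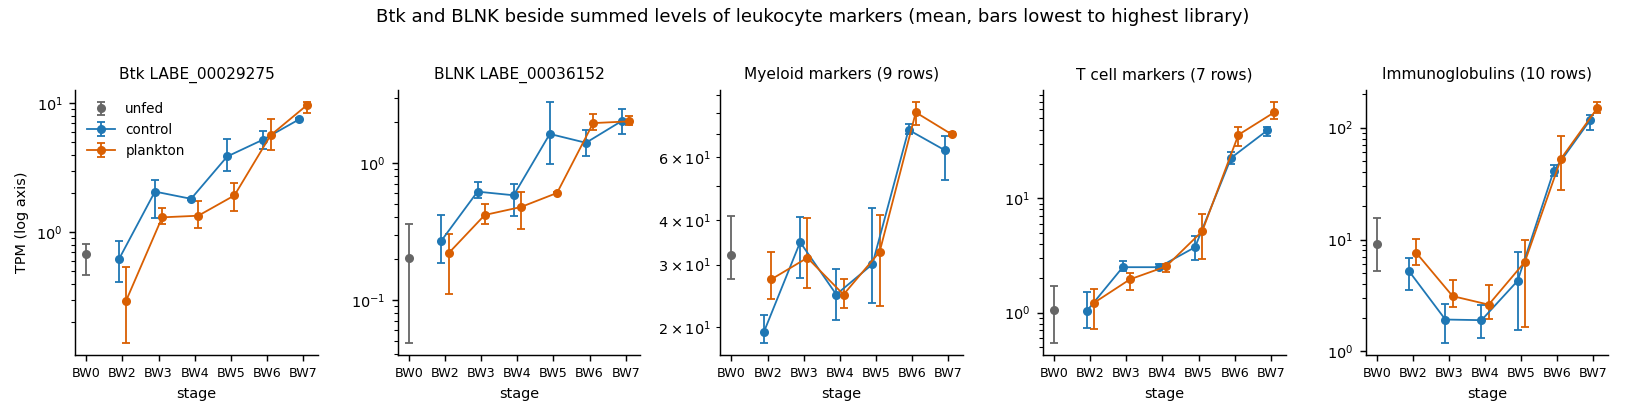
Btk, BLNK LABE_00036152 and the summed levels of 9 myeloid, 7 T cell and 10 immunoglobulin rows in TPM (vertical log axis) by stage, as means of 3 tanks per diet or 5 BW0 pools with bars from the lowest to the highest library. Btk was above its BW2 level at BW3, whereas the immunoglobulin sum was 2.53 TPM at BW3 and 132 TPM at BW7.

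Markers of other blood lineages moved over the same stages as Btk and BLNK. The 7 T cell rows summed to 1.12 TPM at BW2 (range 0.713 to 1.62), 4.45 TPM at BW5 (2.90 to 7.32) and 48.0 TPM at BW7 (34.9 to 69.8), and all 7 were higher at BW7 than at BW2. The 9 myeloid rows summed to 23.3 TPM at BW2 (18.1 to 32.6), 31.3 TPM at BW5 (22.9 to 43.2) and 66.3 TPM at BW7 (52.0 to 70.6), with 7 of 8 tested rows higher and LYZ, a lysozyme, lower. In the same comparison 34.7% of all rows tested were called higher and 38% lower. The T cell rows ZAP70 and CD4 had stage means of at most 0.195 and 0.142 TPM from BW0 to BW5. They could thus pass the filter only with BW6 or BW7 libraries, and how far the filter raised these counts was not tested. MPO, CSF1R, CD3E and CD8A had no row of that name. Over the 41 libraries the Pearson correlation of Btk was 0.930 with the T cell sum, 0.821 with the myeloid sum and 0.733 with the immunoglobulin sum. After removing the mean of each stage and diet group these values were 0.351, 0.643 and 0.258. The libraries share stages and the TPM scale, and the part of these lineages in the Btk and BLNK results was not tested.

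The genes whose course was most like that of Btk, among 17738 named rows with a mean of at least 1 TPM, were NCKAP1L (r = 0.979 over 41 libraries), a haematopoietic regulator of actin, HMHA1 (r = 0.979), a minor histocompatibility antigen of blood cells, and PIK3AP1 (r = 0.977), the adaptor BCAP of phosphoinositide 3-kinase signalling. Btk correlated with BLNK LABE_00036152 at r = 0.929 and with Blnk LABE_00053779 at r = 0.793 over the 36 tank libraries, and within groups at 0.397 and 0.773. The copy that followed Btk most closely over stages was thus not the one that followed it most closely among tanks of a group.

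The 3 CD81 copies, tetraspanins of the co-receptor complex and of many other cell surfaces, were the most abundant member rows. CD81 LABE_00073015 averaged 92.5 TPM over the 41 libraries, CD81 LABE_00011830 averaged 66.3 TPM and Cd81 LABE_00005592 averaged 35.3 TPM. In this order they averaged 99.2, 70.8 and 18.5 TPM in the 5 BW0 pools, against 39.7, 47.7 and 12.8 TPM at BW2. All of them rose from BW2 to BW3, by 2.12 ± 0.25, 0.81 ± 0.08 and 1.15 ± 0.11 (adjusted p at most 4.25e-08), each by more than the shift of the median row. From there they took different courses.

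Cd81 LABE_00005592 went on rising to BW4 (0.58 ± 0.11, adjusted p = 0.000114). It lay between 9.23 and 19.1 TPM at BW2 with a median of 12.2 TPM, and between 48.1 and 54.7 TPM at BW7 with a median of 51.1 TPM. The difference of 1.96 ± 0.11 (adjusted p = 4.95e-17) had no overlap between stages. The rows most like it were 2 copies of Col1a2, a chain of type I collagen (r = 0.985 and 0.978), and LOXL4, an enzyme that crosslinks collagen (r = 0.978).

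CD81 LABE_00011830 and CD81 LABE_00073015 peaked at BW3, at 80.4 ± 8.43 and 125 ± 27.6 TPM, and had come to 66.5 ± 2.31 and 97.9 ± 5.69 TPM at BW7 (SD, n = 6 tanks). These BW7 means were not above the BW0 means of 70.8 ± 8.06 and 99.2 ± 38.5 TPM (SD, n = 5 pools). At BW2 CD81 LABE_00011830 lay between 31.9 and 64.4 TPM with a median of 46.9 TPM, and CD81 LABE_00073015 between 11.04 and 87.0 TPM with a median of 30.3 TPM. The high end of the latter range came from tanks B5 and B8, and without the 2 pools of these tanks that correlated better with other groups it was 5.95 to 65.6 TPM. From BW2 to BW7 the copies differed by 0.55 ± 0.08 and 1.80 ± 0.25, and without all 9 such pools CD81 LABE_00073015 differed by 2.21. The copies correlated at r = 0.950 over 36 libraries and 0.869 within groups, more than any other pair of member rows. The change of CD81 LABE_00011830 was smaller than that of both other copies in all 6 tanks (exact sign-flip test, p = 0.03125, adjusted p = 0.0417 for each). The change of Cd81 LABE_00005592 minus that of CD81 LABE_00011830 was 1.42 (SD 0.171), and the change of CD81 LABE_00011830 minus that of CD81 LABE_00073015 was -1.255 (SD 0.562). Cd81 LABE_00005592 and CD81 LABE_00073015 differed in their change by 0.16 with an SD of 0.551 (exact sign-flip test, p = 0.625).

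**Figure D3:**
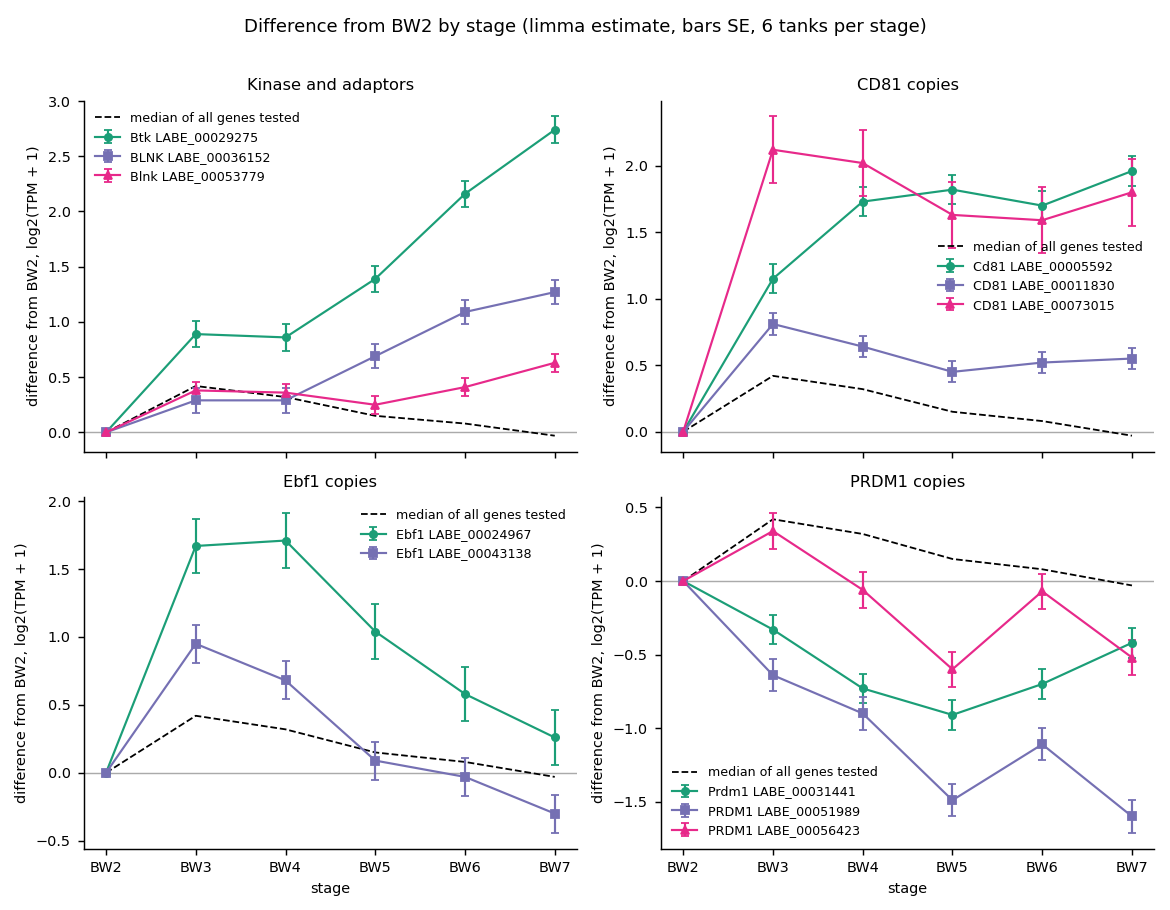
Difference from BW2 in log2(TPM + 1) (vertical axis) at each fed stage (horizontal axis) for the 11 tested member rows, in panels by role, with standard errors from limma and the median of all rows tested as a dashed line. Btk ended at 2.74 and PRDM1 LABE_00051989 at -1.60, and the Ebf1 copies returned to 0.26 and -0.30.

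The transcription factors did not share the course of Btk. Ebf1 LABE_00024967 lay between 0.245 and 2.73 TPM at BW2 with a median of 0.93 TPM, between 4.41 and 6.96 TPM at BW3 and between 4.19 and 6.23 TPM at BW4. It then came down to 0.974 to 1.90 TPM at BW7. The rise to BW3 was 1.67 ± 0.20 (adjusted p = 3.79e-08) with no overlap, the step from BW4 to BW5 was -0.67 ± 0.20 (adjusted p = 0.00662), and BW7 differed from BW2 by 0.26 ± 0.20 (adjusted p = 0.243). That last difference came to 0.44 (adjusted p = 0.0258) without the 9 pools and to 0.41 (adjusted p = 0.0254) with size factors.

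Ebf1 LABE_00043138 had its highest fed mean at BW3, and Ebf1 LABE_00024967 at BW4. It lay between 1.65 and 4.44 TPM at BW2 with a median of 2.64 TPM, between 4.99 and 6.83 TPM at BW3 and between 1.78 and 2.15 TPM at BW7. It rose by 0.95 ± 0.14 to BW3 (adjusted p = 8.27e-07), fell by 0.60 ± 0.14 from BW4 to BW5 (adjusted p = 0.000789), and differed by -0.30 ± 0.14 between BW7 and BW2 (adjusted p = 0.0515). With the tank as a replicate block this last difference passed the threshold (adjusted p = 0.0461). The copies correlated at r = 0.854 over 36 libraries and 0.727 within groups, and the change from BW2 to BW7 was higher in Ebf1 LABE_00024967 in all 6 tanks, by 0.56 on average (SD 0.268, exact sign-flip test, p = 0.03125, adjusted p = 0.0417).

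When the immunoglobulin sum was at its highest, both Ebf1 copies were at their lowest fed levels or close to them. The correlation of the copies with the immunoglobulin sum was -0.607 and -0.649 over 41 libraries. The rows most like Ebf1 LABE_00024967 were EBF3, another member of the same factor family (r = 0.944), RBM33 (r = 0.942) and efnb2a, an ephrin (r = 0.942). Those most like Ebf1 LABE_00043138 were CAMSAP3, which binds microtubule ends (r = 0.952), Gpm6b, a membrane glycoprotein of neurons and glia (r = 0.946), and APC2 (r = 0.945), a gene of the nervous system. The 9 midbrain, hindbrain and neuron marker rows had 7 lower and 0 higher at BW7 than at BW2, with a median of -1.04, and their part in the Ebf1 results was not tested.

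The row named pax5 (LABE_00039509), the factor that holds B-cell identity and that also acts in the midbrain and hindbrain of embryos, was listed at 0 in 49 of 77 pools. Its highest pool was at 0.526 TPM and its highest library at 0.297 TPM, so it was not tested. Stage means were 0.110 TPM at BW2, 0.107 at BW3 and 0.167 at BW4, against 0.0328 at BW6 and 0.00735 at BW7. At BW7, when the immunoglobulin sum was at its highest, 5 of the 6 tank libraries were listed at 0 and the sixth held 0.0441 TPM. Whether this row covers the whole pax5 transcript is not known from the files.

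The 3 PRDM1 copies, the factor of plasma cells and also of slow muscle, skin and other embryonic tissues in zebrafish, were on average higher early than late. PRDM1 LABE_00051989 lay between 7.51 and 14.9 TPM at BW2, with a median of 11.2 TPM, and between 2.27 and 3.32 TPM at BW7, with a median of 2.63 TPM. The ranges did not overlap, and the copy fell by 1.60 ± 0.11 (adjusted p = 5.61e-14) in 6 of 6 tanks, at first from BW2 to BW3 (-0.64 ± 0.11, adjusted p = 1.37e-05). It rose again from BW5 to BW6, by 0.39 ± 0.11 (adjusted p = 0.00700, and 0.32 with an adjusted p of 0.0651 without tank B10), and fell from BW6 to BW7, by 0.50 ± 0.11 (adjusted p = 0.000927). The early fall was uneven between diets. Plankton means went from 14.1 TPM at BW2 to 6.04 TPM at BW3, and control means from 7.97 to 6.73 TPM. From BW2 to BW7 plankton tanks changed by -2.17 to -1.82 and control tanks by -1.34 to -0.98.

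Prdm1 LABE_00031441 lay between 1.32 and 4.61 TPM at BW2 with a median of 2.71 TPM, and came down to 0.716 to 1.11 TPM at BW5. It stood at 1.28 to 2.06 TPM at BW7, with a median of 1.63 TPM. The difference between BW7 and BW2 was -0.42 ± 0.10 (adjusted p = 0.000475), with overlap between the stages. Control tank B8 changed by 0.108 and control tank B10 by -0.005, while B6 and all plankton tanks fell by at least 0.383. Control means went from 1.80 TPM at BW2 to 1.45 TPM at BW7, and plankton means from 3.53 to 1.83 TPM. The rise from BW6 to BW7 was 0.28 ± 0.10 (adjusted p = 0.0295). Without the 9 pools that step was 0.22 (adjusted p = 0.161), and its call was also lost without each tank other than B6 (adjusted p = 0.0629 to 0.0877).

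PRDM1 LABE_00056423 lay between 1.65 and 2.49 TPM at BW2, with a median of 2.13 TPM, and between 0.934 and 1.36 TPM at BW7, with a median of 1.11 TPM. Its course was uneven. The step to BW3 was 0.34 ± 0.12 (adjusted p = 0.0142), which size factors turned to -0.07. The copy fell to BW4 (-0.41 ± 0.12) and BW5 (-0.53 ± 0.12), rose to BW6 (0.53 ± 0.12) and fell to BW7 (-0.45 ± 0.12), with adjusted p at most 0.0118. The fall to BW4 lost its call without tank B5, B8 or B9 (adjusted p = 0.0680, 0.102 and 0.0668). PRDM1 LABE_00051989 fell further than either other copy in all 6 tanks (exact sign-flip test, p = 0.03125, adjusted p = 0.0417 for each). Its change minus that of PRDM1 LABE_00056423 was -1.081 (SD 0.463), and the change of Prdm1 LABE_00031441 minus its own was 1.18 (SD 0.303). The changes of the other two copies differed by 0.10 with an SD of 0.473 (exact sign-flip test, p = 0.656). In all, 6 of 8 pairs of copies passed the sign-flip test, each at the smallest p that 6 tanks allow. Their adjusted p rests on all 6 pairs lying there together, and pairs of CD81 or PRDM1 share copies, so the pairs are not independent. Among them was the BLNK pair, whose first copy entered through its late libraries. How often other rows that share a name differ in this way was not tested.

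**Figure D4:**
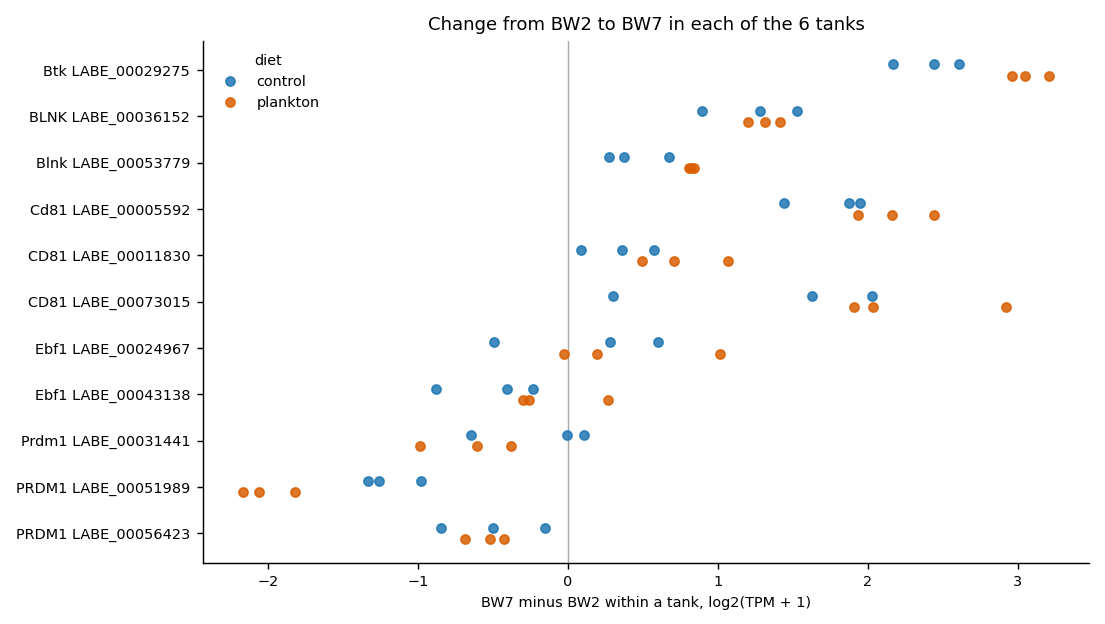
Difference between BW7 and BW2 in log2(TPM + 1) (horizontal axis) within each of the 6 tanks for the 11 tested member rows, with control and plankton tanks in different colours. All 6 tanks lay above 0 for Btk, both BLNK copies and the CD81 copies, and below 0 for PRDM1 LABE_00051989 and PRDM1 LABE_00056423.

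The rows most like the PRDM1 copies differed from copy to copy. They were B3GALT2, a galactosyltransferase (r = 0.934), PRR5L (r = 0.913) and TMPRSS9, a serine protease (r = 0.892), for Prdm1 LABE_00031441. For PRDM1 LABE_00051989 they were EFTUD1, which acts in ribosome maturation (r = 0.956), ctdspl2a (r = 0.946) and Nrip3 (r = 0.945). For PRDM1 LABE_00056423 they were Ppp1r12c (r = 0.939), a myosin phosphatase subunit, CECR2 (r = 0.923) and SMAD6 (r = 0.915), an inhibitor of BMP signalling. XBP1, another plasma cell factor that is also widely expressed, was at 130 TPM at BW2 and 135 TPM at BW7, while the 3 IRF4 rows averaged 0.0385, 0.0270 and 0.0793 TPM at BW2 and 1.36, 0.546 and 1.24 TPM at BW7. The correlations of the PRDM1 copies with the immunoglobulin sum were 0.008, -0.402 and -0.359 over 41 libraries.

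Counted over all stages, the share of member rows called was of the order of the background. From BW2 to BW7, 6 of 11 member rows rose and 3 fell, where 72.7% of all rows tested were called. The stages did not overlap in 7 of 11 member rows and in 47.3% of all rows. From BW2 to BW4 it was 8 and 2 (background 66.8%), to BW5 7 and 3 (68.1%), and to BW6 7 and 2 (70.0%). Of the single steps, BW0 to BW2 had 0 higher and 7 lower (63.2%), BW2 to BW3 had 9 and 2 (68.7%), and BW3 to BW4 had 1 and 2 (29.0%). The step to BW5 had 2 and 4 (49.8%), that to BW6 4 and 0 (42.5%), and that to BW7 4 and 2 (36.9%). Among the 7 rows called lower from BW0 to BW2, CD81 LABE_00073015 moved most, by -1.67 ± 0.27. The 5 BW0 pools, all from incubators, entered this step as replicates. Leaving out pools whose titles are written with spaces took away 4 of the 5 BW0 pools. The BW0 pool left, R3, was the one that correlated better with BW2 control pools. The difference of CD81 LABE_00073015 was then -0.65, but a single BW0 pool cannot decide whether the 7 calls hold. With size factors 4 of the 7 calls were lost.

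Diet differences were found at BW2 alone among the 6 stages. There, 2 member rows were higher and 3 lower in plankton than in control tanks, against 29.1% of all rows called, and the diets did not overlap in 3 member rows and in 31.6% of all rows. The higher rows were 2 of the 3 PRDM1 copies, and the lower rows were all 3 CD81 copies. Fitted on the BW2 groups alone, 1 of the 5 calls was left, that of PRDM1 LABE_00051989.

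PRDM1 LABE_00051989 was at 13.7, 13.8 and 14.9 TPM in plankton tanks at BW2 and at 7.51, 7.69 and 8.70 TPM in control tanks, while the 5 BW0 pools lay between 6.17 and 12.2 TPM with a median of 10.8 TPM. With all pools, plankton tanks were above all control tanks and above all BW0 pools. The difference was 0.74 ± 0.16 (limma, adjusted p = 0.000831), and 0.52 (adjusted p = 0.0138) without the 9 pools. Plankton tanks then lay between 8.82 and 13.8 TPM and control tanks between 7.51 and 8.70 TPM. The remaining BW0 pools lay between 6.17 and 11.7 TPM, so plankton tanks were no longer above all of them.

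Prdm1 LABE_00031441 was at 2.92, 3.06 and 4.61 TPM in plankton tanks and at 1.32, 1.57 and 2.50 TPM in control tanks, with BW0 pools between 3.24 and 4.31 TPM. The diets did not overlap, and control tanks were below all BW0 pools. The difference was 0.68 ± 0.14 (adjusted p = 0.000578). In the fit of the BW2 groups alone its adjusted p was 0.110. PRDM1 LABE_00056423 showed no such difference (0.07 ± 0.17, adjusted p = 0.820).

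CD81 LABE_00011830 was at 31.9, 43.8 and 46.0 TPM in plankton tanks and at 47.7, 52.2 and 64.4 TPM in control tanks at BW2. The diets did not overlap, and the difference was -0.47 ± 0.12 (adjusted p = 0.00269), against -0.10 for the median row. Cd81 LABE_00005592 differed by -0.44 ± 0.15 (adjusted p = 0.0262), with 9.23, 10.1 and 12.4 TPM against 12.01, 13.9 and 19.1 TPM, which overlap. With size factors this difference was -0.25 (adjusted p = 0.150).

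CD81 LABE_00073015 was at 11.04, 22.7 and 57.0 TPM in plankton tanks and at 26.7, 33.9 and 87.0 TPM in control tanks. The difference of -1.07 ± 0.36 (adjusted p = 0.0245) came with overlap. This overlap rests on the 57.0 TPM of plankton tank B5, the arithmetic mean of pools at 108 and 5.95 TPM. Whether the diets overlap in the averaged log values was not tested. Without the 9 pools it was -1.61 ± 0.28 (adjusted p = 3.30e-05). Without tank B7, tank B8 or tank B9 it lost its call (adjusted p = 0.246, 0.383 and 0.0603), as did Cd81 LABE_00005592, and CD81 LABE_00011830 lost it without B7 or B8. The 5 calls at BW2 thus became 2 without B7 or without B8, those of the PRDM1 copies, and 3 without B9.

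Btk at BW2 was at 0.14, 0.207 and 0.534 TPM in plankton tanks and at 0.409, 0.581 and 0.855 TPM in control tanks. The difference of -0.34 ± 0.18 was not called (adjusted p = 0.150). Without the 9 pools it was -0.48 (adjusted p = 0.0308), with 0 to 0.207 TPM against 0.409 to 0.718 TPM, and with a pseudocount of 0.1 it was -1.19 (adjusted p = 0.000911). Ebf1 LABE_00043138 likewise went from -0.35 (adjusted p = 0.187) to -0.59 (adjusted p = 0.0230). At this stage the summed immunoglobulin level was 5.91 to 10.1 TPM in plankton and 3.53 to 6.90 TPM in control tanks, and the myeloid sum was 24.1 to 32.6 and 18.1 to 21.6 TPM. The part of the 2 BW2 pools and of these markers in the diet results was not tested beyond the values given.

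**Figure D5:**
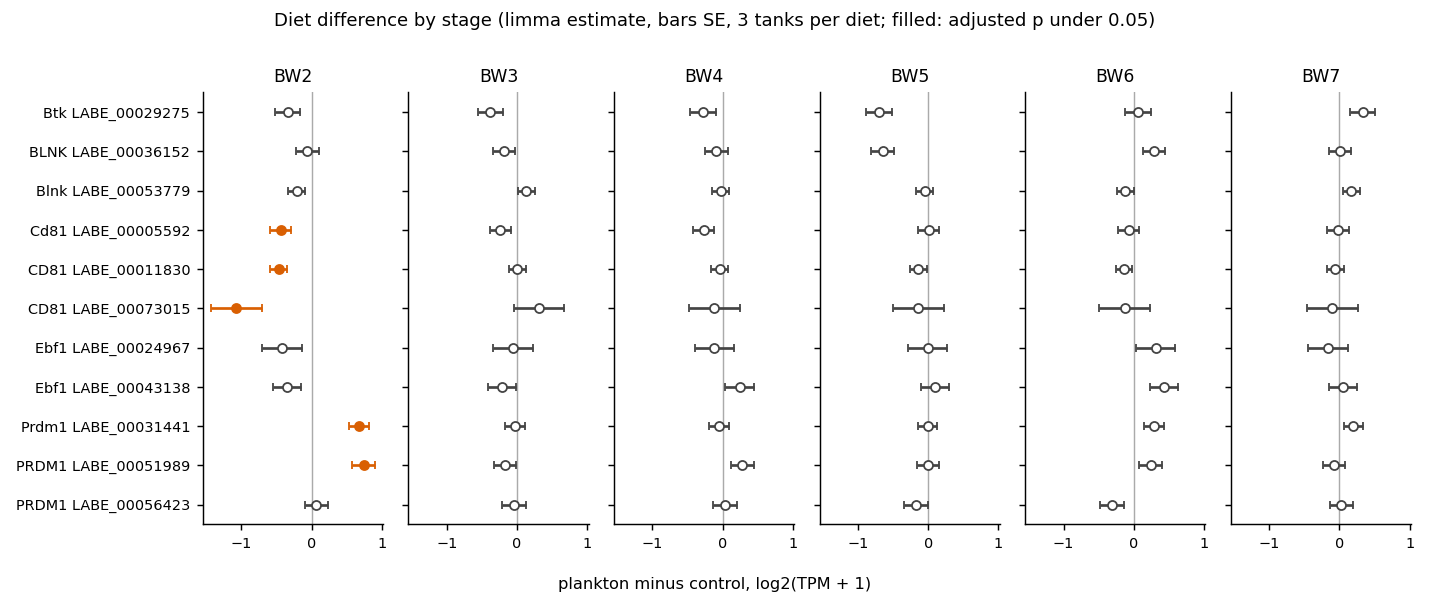
Difference of plankton minus control in log2(TPM + 1) (horizontal axis) with its standard error from limma, for the 11 tested member rows at each fed stage, 3 tanks per diet. Filled points, 5 in all and all at BW2, passed the threshold of 0.05, and Btk and BLNK LABE_00036152 at BW5 lay at -0.70 and -0.65 without passing it.

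After BW2 limma called 0 of 11 member rows for diet at each stage, where the background was 0.281% at BW3, 0.667% at BW4, 0.3% at BW5, 0.804% at BW6 and 0.0863% at BW7. At an unadjusted p under 0.05 there were 1, 0, 2, 1 and 0 member rows, against 6.21%, 6.76%, 4.95%, 8.21% and 3.80% of all rows. The groups of 3 tanks did not overlap in 1, 3, 3, 5 and 3 of the 11 member rows, against 11.6%, 30.3%, 14.4%, 12.4% and 13.5% of all rows.

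The uncalled differences with the smallest p were in Btk and BLNK LABE_00036152 at BW5. Btk was at 1.46, 1.91 and 2.41 TPM in plankton tanks and at 2.97, 3.34 and 5.27 TPM in control tanks (-0.70 ± 0.18, adjusted p = 0.0907). BLNK LABE_00036152 was at 0.598, 0.598 and 0.616 TPM in plankton tanks and at 0.987, 1.11 and 2.79 TPM in control tanks (-0.65 ± 0.15, adjusted p = 0.0695 with no filter). Neither gene overlapped between diets, and in both the highest value was that of control tank B10. With size factors both passed (adjusted p = 0.00796 and 0.0364). Over 14 alternatives the adjusted p ranged from 0.00794 to 0.724 for Btk and from 0.00389 to 0.599 for BLNK. Both lowest values came from the fit with each pool as a replicate, which counts the 2 pools of a tank as independent. The differences ranged from -0.93 to -0.51 for Btk and from -1.15 to -0.35 for BLNK, and without B10 they were -0.51 and -0.35. Control larvae were 36 dph and plankton larvae 41 dph old at this stage, so diet, age and the start of dry feed cannot be told apart.

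By BW7 Btk stood at 8.45, 10.2 and 10.2 TPM in plankton tanks and at 7.36, 7.47 and 7.71 TPM in control tanks, which do not overlap (0.33 ± 0.18, adjusted p = 1). The change of the diet difference from the live-feed stages BW2 to BW5 to the dry-feed stages BW6 and BW7 was called by limma in 0 of 11 member rows, against a background of 0.159%. At an unadjusted p under 0.05 there were 2 member rows, against 7.88% of all rows. It was largest in Btk, at 0.62 ± 0.15 (adjusted p = 0.0796), and over 13 alternatives this p ranged from 0.00861 to 0.482. The lowest value came from the fit with each pool as a replicate, which counts the pools of a tank as independent. The summed T cell markers were at 49.3 to 69.8 TPM in plankton and 34.9 to 42.1 TPM in control tanks at BW7, and their part in the Btk values was not tested.

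Other genes of the pathway were taken from lists by role that do not hold the members. Of 24 tested receptor and co-receptor rows, 22 were higher and 1 lower at BW7 than at BW2, with a median of 1.44 against -0.03 over all rows. Of all rows tested, 34.7% were called higher and 38% lower, which is the background for each list. CD40 LABE_00081267, the receptor for T cell help, rose by 3.32 ± 0.17, the leukocyte tetraspanin Cd53 by 2.68 ± 0.17 and the ectoenzyme CD38 by 2.58 ± 0.12. Another copy, Cd38, fell by 1.5 ± 0.10. The stage means of CD40 LABE_00081267 were at most 0.706 TPM from BW0 to BW4, and those of CD38 LABE_00077277 at most 0.881 TPM from BW0 to BW5. Both may thus have passed the filter through later libraries, where they were high. How far such rows raised the counts against the background was not tested. Of 45 rows of receptor-proximal signalling, 31 were higher and 5 lower, with a median of 0.53. PIK3AP1 (2.02 ± 0.11), the exchange factor VAV1 (1.91 ± 0.13) and PLCG2 (1.68 ± 0.13), the phospholipase that Btk activates, rose with Btk.

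Inhibitors of the receptor had 9 higher and 3 lower of 14, with a median of 0.37. The phosphatases PTPN6 and INPP5D rose by 2.36 ± 0.14 and 1.72 ± 0.11. Of 31 rows of B-lineage transcription factors, 19 were higher and 5 lower, with a median of 0.45. Runx1 (2.29 ± 0.23), MEF2C (2.20 ± 0.22), Spi1 (2.13 ± 0.17) and SPI1 (1.98 ± 0.14) rose, all of which are also known from other tissues or myeloid cells. TCF12 fell by 1.98 ± 0.12, LEF1 by 1.36 ± 0.10 and the EBF3 copies by 1.44 ± 0.19 and 1.06 ± 0.16.

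Receptor gene rearrangement had 5 higher and 0 lower of 8, with a median of 0.42. It was led by rag1 (2.78 ± 0.15), at 0.0187 TPM at BW2 and 6.78 TPM at BW7, and rag2 (2.02 ± 0.12). Both also act in developing T cells. From BW0 to BW4 rag1 was at most 0.158 TPM and rag2 at most 0.173 TPM, so both passed the filter through later stages alone. How far the filter raised the counts of higher rows in the lists was not tested. Germinal centre and plasma cell rows had 9 higher and 0 lower of 13, with a median of 1.04, among them Sdc1, a syndecan that is also epithelial, at 2.62 ± 0.16, and TNFSF13B, the B-cell survival factor BAFF, at 1.73 ± 0.13. The 10 immunoglobulin rows had 9 higher and 0 lower, with sIgM4 at 4.26 ± 0.21 and TM-IgM at 4.11 ± 0.28. Of these rows, IgD1234 was at most 0.519 TPM from BW0 to BW5 and passed the filter through later stages alone, whereas sIgM4 reached 1.88 TPM at BW2. TM-IgT, at most 0.762 TPM from BW0 to BW4, and sIgD, at most 1.04 TPM from BW0 to BW5, also depended on later libraries to pass. Of 35 other tetraspanins, 17 were higher and 8 lower, with a median of 0.29, so the rises of the CD81 copies stood beside a family that moved both ways. For diet at BW2, where 29.1% of all rows were called, the receptor list had 2 higher and 0 lower of 24, the signalling list 3 and 1 of 45, the transcription factor list 1 and 3 of 31, and the rearrangement list 0 and 3 of 8. MALT1, a protease of the receptor pathway, was higher in plankton tanks by 0.68 ± 0.13, and XRCC5, which acts in DNA end joining, was lower (-1.07 ± 0.20). At BW6, where 0.804% of all rows were called, the receptor list had 0 higher and 1 lower of 24 in plankton tanks. The lower row, Cd40 LABE_00070503 (-0.73 ± 0.16, adjusted p = 0.0143), was another copy than CD40 LABE_00081267. At the same stage rag1 (0.90 ± 0.21, adjusted p = 0.0283) and rag2 (0.73 ± 0.18, adjusted p = 0.0320) were higher in plankton tanks. The T cell marker Tcra was also higher there (0.95 ± 0.21), and its part in the rag1 and rag2 values was not tested.

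Slow muscle markers, looked up because Prdm1 acts there in zebrafish, had 6 higher and 4 lower of 13 rows at BW7 against BW2, photoreceptor markers 2 and 1 of 4, and adipocyte markers 1 and 0 of 4. Across the member rows, the correlation over 36 tank libraries was -0.872 between Cd81 LABE_00005592 and PRDM1 LABE_00051989 and -0.788 between Btk and PRDM1 LABE_00051989. Within stage and diet groups these were 0.082 and -0.057, so the opposition of these rows was one between stages and was not seen among tanks of a stage.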

How the data were processed

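The data are messenger RNA levels of 77 larval pools. The authors deposited TPM values per row and pool, and every column sums to 1000000. Salmon and edgeR are named in the submitters' processing notes, without version. Which options and transcriptome they used is not given in the sources used here. Tables were handled in Python 3.11.15 (pandas 2.3.3, numpy 2.4.6, matplotlib 3.10.9). Tank means of log2(TPM + 1) were tested in R 4.3.3 with limma 3.58.1 and an intensity trend (residual degrees of freedom 28), and the procedure was tested on simulated data. The pseudocount of 1 shrinks differences of low rows.

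Member rows and lists were chosen with earlier results of these data known. Lists matched names without regard to case, and names with more than 20 copies, such as CD22, were dropped. All member rows are named, from each list up to 4 called rows per direction with the largest difference could be named, and for likeness the 3 rows with the highest correlation. Alternatives were another pseudocount (0.1), no filter, median-of-ratios size factors, each pool as a replicate, only the groups compared, a tank block, leaving out each tank, and leaving out the 9 pools that correlated better with another group. The last drops tank B9 at BW5 and tank B7 at BW7 whole.

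Nothing in the labels says that the 2 pools of a tank came from separate rearing, so tank means were the replicates. The p-values among fed stages rest in part on the spread between these means, which also holds the spread between pools of a tank. How much of it came from the pools was not tested. At BW0 the 5 pools were all labelled Incubator, and each entered as a replicate. The p-values from BW0 to BW2 thus rest in part on the spread between single BW0 pools. Tank numbers mark shared tanks across stages, and 90 same-tank pairs of stages had a median correlation of 0.00923 in their deviations from group means. RefSeq names for this species were read, but the identifiers of the table could not be tied to them, so no sequence or position is given. Some results on genes outside the member rows are not reported here.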

Additional observations from a re-analysis of the deposited data

Results flagged for a closer look

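Among 126 sets of 5 or 6 pools, 9 held a pool set apart from the others of its stage and diet by Dixon's criterion, and chance gives about 1 in 20. At BW2 control pool R3 of tank B8 was high for Blnk LABE_00053779, at 2.06 TPM against 0.976 to 1.31 TPM in the other pools, and for Ebf1 LABE_00024967, at 3.86 TPM against 0.28 to 1.60 TPM. Plankton pool R3 of tank B5 was high for CD81 LABE_00073015, at 108 TPM against 5.95 to 29.7 TPM, and for Ebf1 LABE_00043138, at 5.01 TPM against 1.05 to 2.36 TPM. Both pools are among those that correlated better with another group.

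At BW0, CD81 LABE_00073015 was at 30.9 TPM in pool R3 and at 111 to 123 TPM in the other pools, and R3 also correlated better with BW2 control pools. Prdm1 LABE_00031441 was at 6.14 TPM in a BW2 plankton pool of tank B9, against 2.54 to 3.40 TPM. Btk was at 2.14 TPM in a BW4 plankton pool of tank B7, against 0.991 to 1.33 TPM. PRDM1 LABE_00056423 was at 1.36 TPM in another BW4 plankton pool of B7, against 1.92 to 2.21 TPM, and at 1.61 TPM in a BW7 control pool of tank B10, against 0.910 to 1.12 TPM.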

How the results depend on the processing

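The 5 diet calls became 1 when only the groups compared entered the fit, and 2 to 5 when a tank was left out. The 37 stage-step calls ranged from 31 to 39, and the 9 calls between BW7 and BW2 were 9 or 10 throughout. The feeding period contrast gave 0 calls as reported and when a tank was left out, and 1, Btk, with size factors, with each pool as a replicate and without the 9 pools that correlated better with another group. The 6 copy pairs stayed 6 with a pseudocount of 0.1 and with size factors, while 5 tanks cannot reach the threshold. With the tank as a replicate block, 80 of 80 single calls remained and 1 was added (Ebf1 LABE_00043138, BW7 minus BW2, -0.30, adjusted p = 0.0461). With size factors 10 of 80 lost their call and PRDM1 LABE_00056423 turned from 0.34 to -0.07 between BW2 and BW3. Leaving out pools with a spaced title, an alternative chosen after seeing the data, kept only pool R3 at BW0. This alternative therefore cannot decide the calls from BW0 to BW2. In it, PRDM1 LABE_00056423 turned from -0.57 to 0.01 between BW0 and BW2. The cause was not tested. Depth is unknown, so the reliability of rows under 1 TPM, such as pax5, cannot be judged.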
